A study of Mus musculus with 15 samples.

Results

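The 38 mRNA described here encode enzymes of serine synthesis, folate one-carbon metabolism and the methionine cycle, purine and pyrimidine synthesis, and the making of deoxynucleotides. They were taken by gene symbol from the FPKM (fragments per kilobase of exon, scaled to the reads of the library) tables of mouse CD8+ T cells, and all 38 were present among the 11262 mRNA of the first table and among the 11211 mRNA of the second. They were placed in 5 branches of 3 (serine), 9 (folate and methionine), 12 (purine), 5 (pyrimidine) and 9 (deoxynucleotide) genes.

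A cell that is about to divide must copy its genome and make much RNA, and both need nucleotides. Serine supplies one-carbon units that are carried on folate, in a mitochondrial and a cytosolic arm, and these units are built into the purine ring and into thymidylate. The methionine cycle uses the same pathway for methylation reactions, and ribonucleotide reductase turns ribonucleotides into the building blocks of DNA. Resting lymphocytes are known to rely largely on salvage of nucleosides, and activated lymphocytes to switch on synthesis from small precursors.

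All cells came from LCMV-P14 TCR transgenic mice, whose CD8+ T cells recognise the gp33–41 peptide. The first table held naïve cells taken ex vivo, cells TCR activated for 24 h with gp33–41 (100 ng/ml) together with IL-2 (20 ng/ml) and IL-12 (2 ng/ml), and cells activated in the same way in the presence of 10 µM IC87114, an inhibitor of the p110δ catalytic subunit of PI3K (PI3Kdi), with 3 biological replicates each. For each replicate, lymph nodes of 3 mice aged 9 to 13 weeks were pooled and the pool was divided between the 3 conditions. The second table held cytotoxic T lymphocytes (CTL) that were activated for 48 h, grown for 4 days in 20 ng/ml IL-2, washed on day 6 and then kept for 24 h with 20 ng/ml IL-2 or without IL-2, again with 3 replicates each. For these CTL, the peptide dose, any IL-12, the age of the mice and the number of mice per replicate were not listed. The inhibitor was added to the whole culture, and both activated groups received IL-2 and IL-12 together with the peptide. The tables were normalised separately, and levels from them are set side by side without a test.

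The comparisons ask how the enzymes of these pathways respond to antigen, which part of that response needs p110δ, and what CTL lose when IL-2 is withdrawn. The libraries of a group were similar, with a lowest Pearson r of log2(FPKM + 0.1) between replicates of 0.983 in TCR activated cells and of at least 0.989 in the other groups. The summed FPKM of the T cell markers Cd3d, Cd3e, Cd3g, Cd8a and Cd8b1 was 3189 to 3482 in naïve cells, 637 to 685 in TCR activated cells, 811 to 953 with PI3Kdi, 971 to 1042 in CTL with IL-2 and 1876 to 2069 in CTL without IL-2. B cell markers summed to 21 to 27 FPKM in naïve cells and to 3.33 to 7.82 in activated cells with or without PI3Kdi, over 5 of 6 listed genes, and only Cd79b was measured in CTL, at 2.74 to 6.3 FPKM with IL-2 and 10.8 to 20.6 without. Of 8 myeloid and dendritic cell markers, 1 was measured in the first table, at 0 to 0.3 FPKM, and 3 were measured in CTL, where their sum was 33.8 to 57.6 FPKM with IL-2 and 14.2 to 20.4 without. Most of that sum was Fcer1g, which was called lower without IL-2, while Itgam and Itgax were called higher, from means of 0.293 and 0.31 FPKM to 4.09 and 4.55 FPKM. The summed Cd4 and Zbtb7b of CTL was 16.8 to 21.4 FPKM with IL-2 and 25.6 to 30.2 without, while in the first table only Zbtb7b was measured and stayed at or below 1.16. Of the genes listed as NK cell markers, Eomes alone was measured in the first table. It held 12.4 to 23.8 FPKM in TCR activated cells and 4.03 to 8.24 with PI3Kdi. In CTL Eomes was called lower without IL-2, from a mean of 114 to 14 FPKM. Klrb1c was at means of 1.65 FPKM in CTL with IL-2 and 2.74 without, higher at the adjusted p by less than 2-fold. The paper describes Eomes as a transcription factor of CD8+ T cells, so its level does not stand for NK cells alone. None of 6 erythroid markers was measured. The part of these shifts in the results was not tested, and in bulk RNA fewer cells of a type and less RNA per cell cannot be told apart.

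The summed level of the set was higher in all TCR activated libraries than in all naïve libraries. The 38 mRNA summed to 1367 ± 107 FPKM in naïve cells, 5462 ± 368 in the TCR activated group and 4826 ± 113 with PI3Kdi (SD, n = 3), and to 2984 ± 42.3 in CTL with IL-2 and 1375 ± 96.6 without. This was 0.28% to 0.309% of all FPKM in naïve cells, 1.08% to 1.18% in the TCR activated group and 1.05% to 1.09% with PI3Kdi, and 0.59% to 0.624% in CTL with IL-2 against 0.281% to 0.324% without. An mRNA was called changed at a limma adjusted p under 0.05 together with a fold change above 2 or below 0.5, with p-values adjusted over every gene of the table.

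Against naïve cells, 33 of the 38 mRNA rose on TCR activation and 3 fell. Of all mRNA in that table, 25% were called higher and 23.7% lower, and at the adjusted p alone these shares were 40.9% and 39.8%, against 34 and 3 of the 38 mRNA. The median log2 fold change was 2.09 for the 38 mRNA and 0.01 for all mRNA. With PI3Kdi, 31 of the 38 mRNA were higher than in naïve cells and 3 were lower, where 23.6% and 21.3% of all mRNA were called. At the adjusted p alone 33 were higher and 3 lower, against 40.1% and 39% of all mRNA. This comparison and the previous one share the naïve libraries.

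Between PI3Kdi and TCR activated cells, Ctps2 alone of the 38 mRNA was called higher and Mthfd2 alone was called lower. This is 2.63% in each direction, close to the 3.04% and 2.1% of all mRNA in the table. At the adjusted p alone 1 was higher and 4 were lower (Mthfd2, Psat1, Mthfd1l and Rrm2), against 9.35% and 8.19% of all mRNA, and 14 of the 38 had an unadjusted p under 0.05, against 31.5% of all mRNA. The median log2 fold change was -0.12 for the 38 mRNA and -0.01 for all. In 11 mRNA all 3 PI3Kdi libraries were below all 3 TCR libraries, and in 2 they were above, against 18.6% and 18.1% of all mRNA.

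Withdrawal of IL-2 from CTL lowered most of the set. Here 22 of the 38 mRNA fell and 1, Ctps2, rose, against 13.9% and 14.3% of all mRNA in that table. At the adjusted p alone 32 were lower and 4 higher, against 36.6% and 35.2%. The median log2 fold change was -1.26 for the 38 mRNA and -0.00 for all. The libraries without IL-2 did not overlap those with IL-2 in 37 of the 38 mRNA, 32 lower and 5 higher, where 38.5% of all mRNA were lower and 37.6% higher without overlap.

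**Figure D1:**
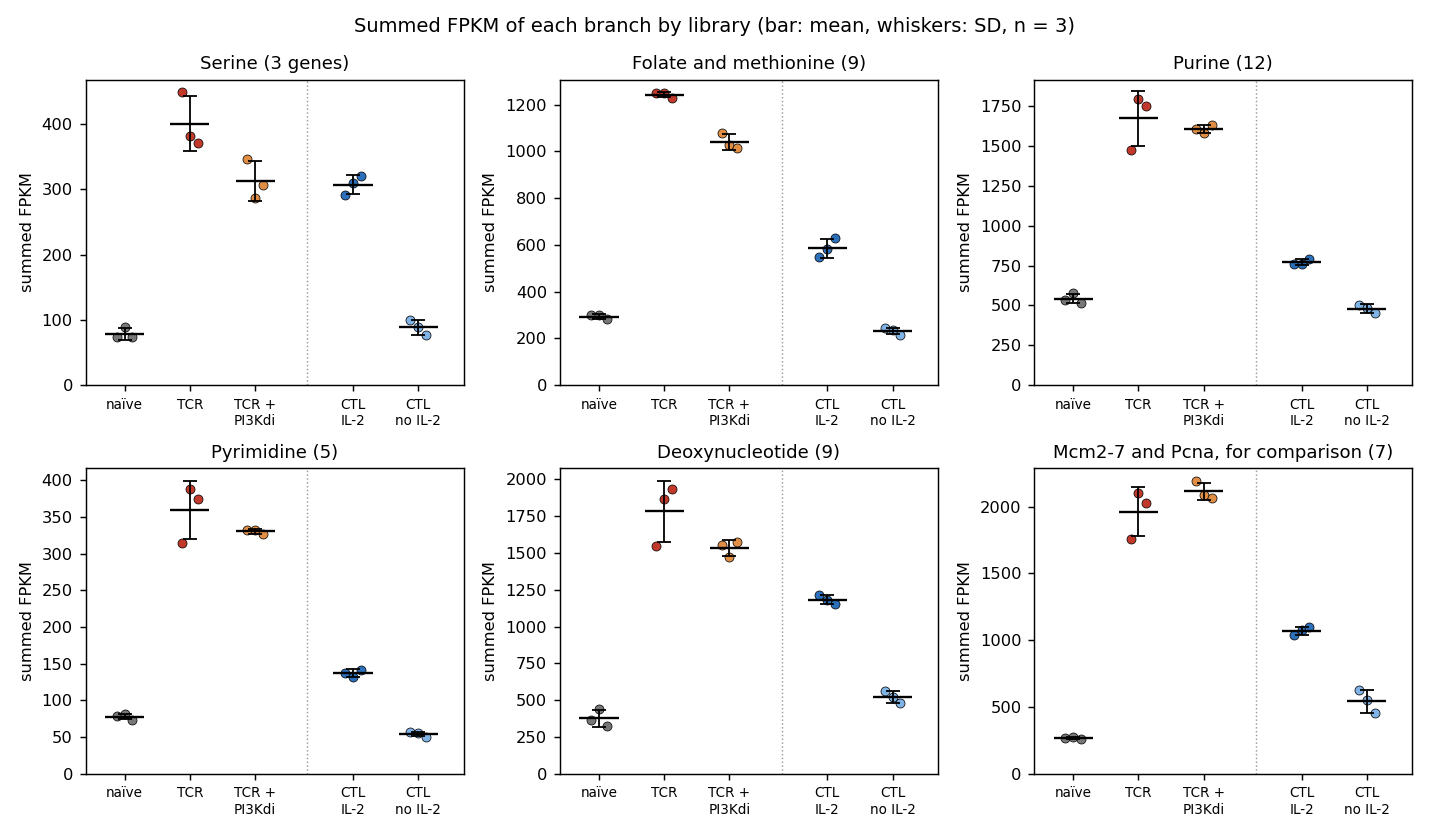
Summed FPKM of the mRNA of each branch in each library (points), with the mean and SD of 3 replicates (horizontal bar and whiskers), for naïve, TCR activated, TCR activated with PI3Kdi and, right of the dotted line from a separately normalised table, CTL with and without IL-2. All 5 branches were higher in the TCR libraries than in the naïve libraries and lower in CTL without IL-2, and the serine and folate sums with PI3Kdi lay below all TCR libraries.

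**Figure D2:**
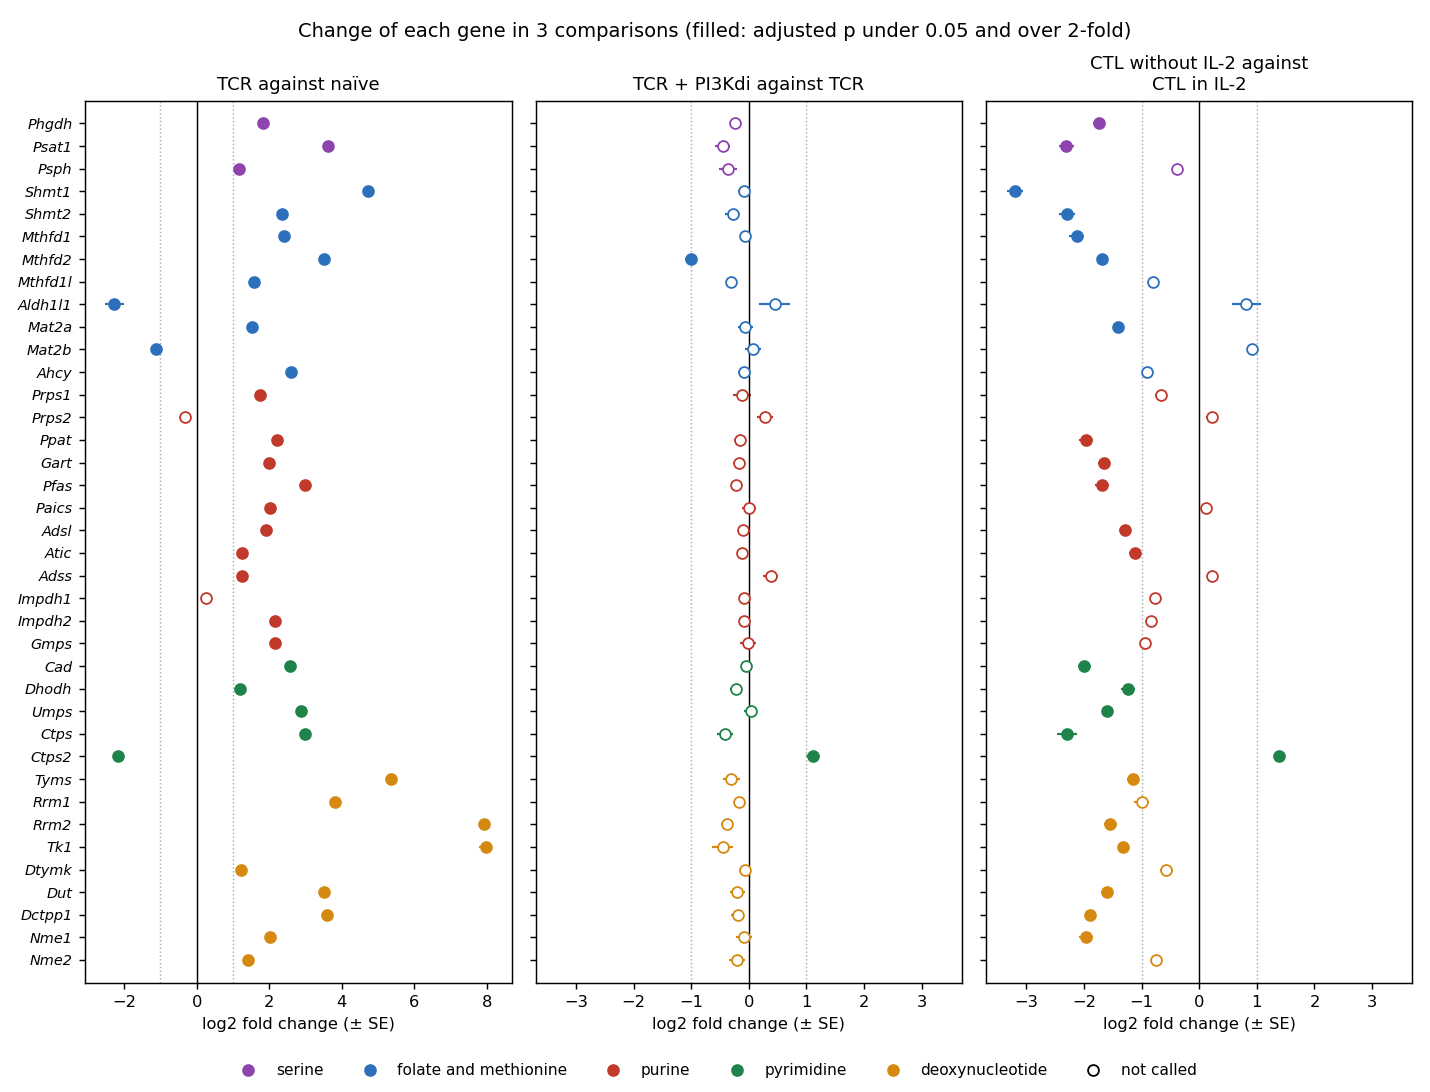
Log2 fold change (points) with its SE (bars) of each of the 38 mRNA, coloured by branch, in 3 comparisons, with dotted lines at the 2-fold limits and filled points for called mRNA. In the left panel 33 points are filled on the right, in the middle panel only Mthfd2 and Ctps2 are filled, and in the right panel 22 points are filled on the left and Ctps2 alone on the right, and the left panel has a wider axis.

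The serine branch has 3 enzymes that lead from a glycolytic intermediate to serine, and all 3 mRNA rose on TCR activation. Their sum went from 78.5 ± 8.87 to 401 ± 42.3 FPKM, and with PI3Kdi it was 313 ± 30.2 FPKM. Within the pools, the ratio of PI3Kdi to TCR was 0.781 ± 0.039 (SD, n = 3) and below 1 in 3 of 3. In CTL the sum was 307 ± 14.3 FPKM with IL-2 and 88.2 ± 11.2 without.

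Psat1, the transaminase of the middle step, had the largest change of the branch. It measured 15.3, 17.6 and 16.2 FPKM in the naïve libraries, 245, 188 and 175 FPKM in the TCR libraries and 170.4, 134 and 137 FPKM with PI3Kdi. The 3 groups did not overlap. Psat1 rose on activation (log2 fold change 3.61 ± 0.13 (SE), adjusted p = 7.3e-10), and with PI3Kdi it was lower at the adjusted p but by less than 2-fold (log2 fold change -0.45 ± 0.13 (SE), adjusted p = 0.038), and this adjusted p was 0.029 to 0.24 when a replicate was left out. CTL held 123, 130.4 and 150.1 FPKM of Psat1 with IL-2 and 31.7, 27.9 and 22 FPKM without. Every library without IL-2 was below every library with it, and Psat1 fell (log2 fold change -2.31 ± 0.13 (SE), adjusted p = 7.3e-07).

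Phgdh, which opens the pathway, started from a higher level. Its naïve libraries held 43.4, 51.4 and 43.2 FPKM and its TCR libraries 162, 159.7 and 164 FPKM. With PI3Kdi it held 145, 127 and 141 FPKM, all below the TCR libraries but not past the adjusted p (log2 fold change -0.24 ± 0.09 (SE), adjusted p = 0.09). In CTL it was 151, 159 and 152 FPKM with IL-2 and 52.2, 46.7 and 40 FPKM without, a fall (log2 fold change -1.74 ± 0.10 (SE), adjusted p = 7e-07) that left it near the level listed for naïve cells. In the transcript annotation, 35.8% of the 75-base stretches of Phgdh occur also in transcripts of other genes, mostly pseudogenes, and how reads that fit more than 1 place were counted is not given in the sources used here.

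Psph, the phosphatase of the last step, had the smallest change of the branch on activation. It held 15.2, 19.7 and 13.6 FPKM in naïve cells and 43.3, 34.4 and 32.1 FPKM after activation, without overlap, and rose (log2 fold change 1.18 ± 0.15 (SE), adjusted p = 1.9e-05). With PI3Kdi the libraries held 30.7, 25.6 and 28.6 FPKM (log2 fold change -0.36 ± 0.15 (SE), adjusted p = 0.12). In CTL the levels were 19.2 ± 1.03 FPKM with IL-2 and 14.7 ± 0.776 FPKM without, lower at the adjusted p (log2 fold change -0.38 ± 0.09 (SE), adjusted p = 0.0033) and not by 2-fold.

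Of the 9 mRNA of the folate and methionine branch, 7 rose on activation and 2 fell, Aldh1l1 and Mat2b. The branch summed to 292 ± 9.05 FPKM in naïve cells, 1243 ± 11.7 in the TCR activated group and 1040 ± 33.7 with PI3Kdi, with a PI3Kdi to TCR ratio of 0.837 ± 0.0241 within the pools, below 1 in 3 of 3. In CTL it summed to 585 ± 40.3 FPKM with IL-2 and 231 ± 13.2 without, and 5 of the 9 mRNA fell.

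Mthfd2, the mitochondrial methylenetetrahydrofolate dehydrogenase and cyclohydrolase, was the one mRNA of the 38 called lower with PI3Kdi. It lies on chromosome 6 of mm10 from 83305704 to 83326011. Its libraries held 13.9, 18.1 and 14.6 FPKM in naïve cells, 185, 183 and 163 FPKM after activation and 99.9, 83.6 and 82.3 FPKM with PI3Kdi. The 3 groups were apart from each other, and the PI3Kdi libraries lay between the naïve and the TCR libraries. Mthfd2 rose on activation (log2 fold change 3.51 ± 0.11 (SE), adjusted p = 3.2e-10), and PI3Kdi took it to 50.1% of the TCR mean (log2 fold change -1.000024 ± 0.11 (SE), adjusted p = 0.00021), lower in 3 of 3 pools. This value, at the 2-fold limit of -1 with no margin to speak of, kept its sign under every alternative run, and the call was lost with a pseudocount of 1, at a log2 fold change of -0.99, and without replicate 2, at -0.94. In CTL Mthfd2 held 70.7, 66.6 and 81.1 FPKM with IL-2 and 24.3, 22.6 and 20.9 FPKM without, again without overlap, and fell (log2 fold change -1.68 ± 0.10 (SE), adjusted p = 7.3e-07).

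The paired enzymes that move one-carbon units between serine and folate, mitochondrial Shmt2 and cytosolic Shmt1, both rose. Shmt1 had the largest change of the branch, from 4.74, 4.88 and 5.3 FPKM in naïve cells to 113, 148 and 142 FPKM (log2 fold change 4.72 ± 0.10 (SE), adjusted p = 2.4e-11). PI3Kdi libraries of Shmt1 held 128, 124 and 124 FPKM and overlapped the TCR libraries (log2 fold change -0.09 ± 0.10 (SE), adjusted p = 0.61). Shmt2 went from 68.2, 69.5 and 80.8 FPKM to 460.1, 327 and 341 FPKM (log2 fold change 2.35 ± 0.13 (SE), adjusted p = 1.5e-08). It held 327, 294 and 295 FPKM with PI3Kdi, a range that meets that of the TCR libraries (log2 fold change -0.28 ± 0.13 (SE), adjusted p = 0.15).

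Shmt1 made up 6.41% ± 0.221 of the summed FPKM of the Shmt pair in naïve cells, 26.7% ± 6.16 in the TCR activated group and 29.1% ± 0.876 with PI3Kdi (SD, n = 3). FPKM is a level per exon length, so the genes of a pair can be set against each other. The TCR libraries spread from 19.7% to 31.1%, all above the naïve range of 6.15% to 6.56%, and held the whole PI3Kdi range of 28.1% to 29.7% within them.

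In CTL Shmt1 had the largest fall of all 38 mRNA, from 36.2, 36.2 and 40.8 FPKM with IL-2 to 5.02, 3.9 and 3.36 FPKM without (log2 fold change -3.19 ± 0.14 (SE), adjusted p = 2.7e-07). Shmt2 went from 126, 174 and 186 FPKM to 33.8, 33.6 and 29.8 FPKM (log2 fold change -2.30 ± 0.14 (SE), adjusted p = 8.4e-07). Neither gene's groups overlapped. The share of Shmt1 in the pair was 19.2% ± 2.73 with IL-2 and 11.2% ± 1.55 without, and these ranges, 17.2% to 22.3% and 10.1% to 12.9%, did not overlap.

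Mthfd1, the cytosolic enzyme of 3 activities, and Mthfd1l, the mitochondrial formate synthetase, both rose on activation. Mthfd1 held 25.5, 26.7 and 25.3 FPKM in naïve cells, 124, 153 and 142 FPKM after activation and 137, 133 and 131 FPKM with PI3Kdi. The activated groups overlapped each other and not the naïve group (log2 fold change 2.42 ± 0.08 (SE), adjusted p = 4.9e-10 on activation). Mthfd1l held 24.5, 25 and 23.5 FPKM, 75.7, 73.4 and 68.6 FPKM and 59.2, 55.5 and 61.8 FPKM in the same order. It rose on activation (log2 fold change 1.57 ± 0.08 (SE), adjusted p = 6.2e-09), and its PI3Kdi libraries lay below the TCR libraries, by less than 2-fold (log2 fold change -0.30 ± 0.08 (SE), adjusted p = 0.02; 0.045 to 0.27 when a replicate was left out).

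Without IL-2 Mthfd1 fell, and Mthfd1l was lower by less than 2-fold. Mthfd1 held 48.1, 53 and 54.4 FPKM with IL-2 and 13.8, 12.5 and 9.47 FPKM without (log2 fold change -2.12 ± 0.13 (SE), adjusted p = 1.1e-06), and Mthfd1l held 39, 40.2 and 42.6 FPKM and 23.2, 24.3 and 22.1 FPKM (log2 fold change -0.80 ± 0.08 (SE), adjusted p = 1.5e-05). The share of Mthfd1 in the pair was 56% ± 0.814 with IL-2 and 33.8% ± 3.68 without, with ranges of 55.2% to 56.8% and 30% to 37.3%. In the first table it was 51.5% ± 0.461 in naïve cells, 65.7% ± 3.04 in the TCR activated group and 69.5% ± 1.34 with PI3Kdi, and the naïve range lay below both others.

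Aldh1l1, which takes one-carbon units out of the folate pool as carbon dioxide, went the other way at a low level. It held 0.97, 1.43 and 1.27 FPKM in naïve cells and 0.25, 0.2 and 0.09 FPKM after activation, and fell (log2 fold change -2.27 ± 0.27 (SE), adjusted p = 1.3e-05). At such levels the pseudocount matters, and with a pseudocount of 1 the log2 fold change was -0.91 and was not called. With PI3Kdi it held 0.24, 0.23 and 0.35 FPKM and overlapped the TCR libraries. In CTL it was 0.43, 0.36 and 0.61 FPKM with IL-2 and 1.01, 0.68 and 0.99 FPKM without, higher at the adjusted p and by less than 2-fold (log2 fold change 0.82 ± 0.25 (SE), adjusted p = 0.015).

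The subunits of methionine adenosyltransferase, which makes the methyl donor S-adenosylmethionine, parted. The catalytic subunit Mat2a held 92.6, 74.4 and 73.3 FPKM in naïve cells, 191, 256 and 250.1 FPKM after activation and 222, 233 and 207 FPKM with PI3Kdi, and rose on activation (log2 fold change 1.53 ± 0.13 (SE), adjusted p = 5.3e-07). The regulatory subunit Mat2b held 52.2, 62.8 and 45.1 FPKM, 20.1, 26 and 27.7 FPKM and 23.5, 26.5 and 27.5 FPKM, and fell on activation (log2 fold change -1.11 ± 0.14 (SE), adjusted p = 2.2e-05), a call that was lost without replicate 1, at -0.98. Neither subunit separated the PI3Kdi libraries from the TCR libraries.

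In CTL the signs were reversed. Mat2a fell without IL-2, from 139.9, 126 and 138 FPKM to 56.3, 53.8 and 44 FPKM (log2 fold change -1.40 ± 0.10 (SE), adjusted p = 2.4e-06). Mat2b was at 32.9, 27.8 and 26.5 FPKM with IL-2 and 54.2, 54.1 and 55.6 FPKM without, a difference past the adjusted p and under 2-fold (log2 fold change 0.92 ± 0.09 (SE), adjusted p = 1.8e-05). Ahcy, which clears the product of methylation reactions, rose from 14.2 ± 1.22 FPKM to 86.8 ± 8.72 FPKM on activation (log2 fold change 2.60 ± 0.10 (SE), adjusted p = 1e-09), and in CTL it was 55.8 ± 2.05 FPKM with IL-2 and 29.6 ± 0.52 FPKM without (log2 fold change -0.91 ± 0.07 (SE), adjusted p = 3.8e-06). Of the 75-base stretches of Ahcy, 65.9% occur in transcripts of other genes too, mostly of processed copies, so its level is uncertain.

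The 12 mRNA of the purine branch cover the whole route from ribose phosphate to AMP and GMP, and 10 of them rose on activation, while Prps2 and Impdh1 were not called. Their sum was 543 ± 30.4 FPKM in naïve cells, 1675 ± 173 in the TCR activated group and 1608 ± 25.1 with PI3Kdi. No purine mRNA was called in the PI3Kdi comparison. An unadjusted limma p under 0.05 was found in 2 of 12, against 31.5% of all mRNA, so the branch held no excess. These were Pfas (-0.23 on the log2 scale) and Adss (0.38). In CTL the sum was 772 ± 16.9 FPKM with IL-2 and 479 ± 27.5 without, and 5 of 12 fell.

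The 6 enzymes that build the purine ring on ribose phosphate, Ppat, Gart, Pfas, Paics, Adsl and Atic, rose together, by 1.25 (Atic) to 3.00 (Pfas) on the log2 scale. Pfas, of the step that adds nitrogen from glutamine in the middle of the route, had the largest change of the branch, from 7.38, 6.82 and 7.76 FPKM in naïve cells to 56.1, 60 and 62.1 FPKM (log2 fold change 3.00 ± 0.08 (SE), adjusted p = 1.1e-10). With PI3Kdi its libraries held 50.8, 48.3 and 52.3 FPKM, below the TCR libraries without passing the adjusted p (log2 fold change -0.23 ± 0.08 (SE), adjusted p = 0.077). In CTL Pfas went from 17, 15.1 and 17.4 FPKM with IL-2 to 5.28, 5.56 and 4.4 FPKM without (log2 fold change -1.69 ± 0.12 (SE), adjusted p = 2.1e-06).

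Ppat, the amidotransferase of the first committed step, and Paics, which carries out a pair of later steps, are neighbours that point away from each other on chromosome 5. In the RefSeq annotation of GRCm38.p6, the assembly that mm10 holds, Ppat runs from 76913249 to 76951578 on the minus strand and Paics from 76951302 to 76967509 on the plus strand, so that 277 bases at their starts overlap and their exons meet. The library kit keeps strand, but the strand setting of the counting is not given in the sources used here.

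Their promoters are shown because both genes rose on activation and only Ppat was called in CTL. The windows searched held 250 bases before and 50 after each annotated start, and 36 of the 38 genes matched 1 or more windows of the RefSeq table, all but Pfas and Dhodh. Capitals mark the letters of an E-box (CACGTG, the core bound by MYC and related factors) or of an E2F motif (TTTCCCGC, TTTGGCGC, TTTCGCGC or TTTGCCGC, on either strand), in stretches of 30 bases upstream of the start on the strand of the gene.
Paics, E-box, chr5:76951087-76951116, plus strand: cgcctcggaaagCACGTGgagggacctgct
Ppat, E2F, chr5:76951771-76951800, minus strand: gagcagaccgcGCGGGAAAaaagggcagtg
Ppat, E2F, chr5:76951718-76951747, minus strand: aggatcagaggGCGGGAAAgggaggtgcaa
The Paics stretch lies in an annotated exon of Ppat and both Ppat stretches lie in annotated exons of Paics. A match is a description of the letters and not of binding.

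On activation Ppat went from 15.2, 15.2 and 15 FPKM to 59.5, 77 and 77.7 FPKM (log2 fold change 2.22 ± 0.10 (SE), adjusted p = 3.7e-09) and Paics from 54.7, 63.2 and 51.7 FPKM to 191, 258 and 242 FPKM (log2 fold change 2.02 ± 0.12 (SE), adjusted p = 2.2e-08). With PI3Kdi Ppat held 64.2, 62 and 64.5 FPKM and Paics 230.0, 225 and 239 FPKM, both within the spread of the TCR libraries. In CTL only Ppat was called, and the difference between the neighbours was not tested. Ppat fell from 31.2, 32.6 and 36.9 FPKM with IL-2 to 9.83, 8.8 and 7.2 FPKM without (log2 fold change -1.96 ± 0.12 (SE), adjusted p = 1.1e-06), while Paics held 96.2, 86.1 and 94.5 FPKM with IL-2 and 106, 97.4 and 96.7 FPKM without, all 3 of the latter being above those with IL-2 but not past the adjusted p (log2 fold change 0.12 ± 0.08 (SE), adjusted p = 0.2).

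**Figure D3:**
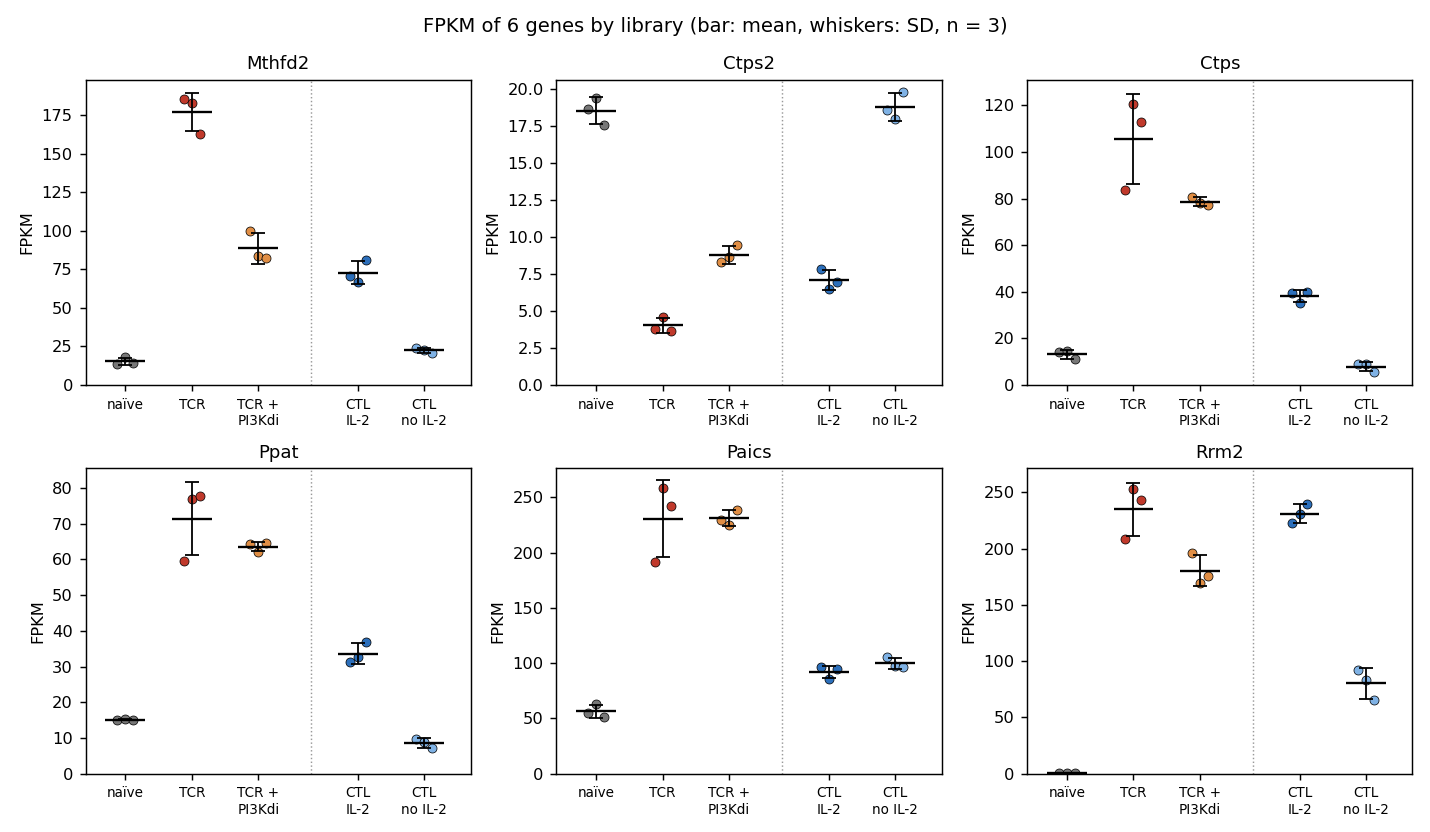
FPKM of Mthfd2, Ctps2, Ctps, Ppat, Paics and Rrm2 in each library (points), with the mean and SD of 3 replicates (bar and whiskers), and a dotted line between the separately normalised tables. Mthfd2 with PI3Kdi sits between the naïve and the TCR libraries, Ctps2 is high where Ctps is low, and without IL-2 Ppat drops to 8.61 FPKM on average while Paics stays at 99.9.

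The other enzymes of ring synthesis fell in CTL without IL-2. Gart held 72.3, 71.8 and 74.7 FPKM with IL-2 and 24.9, 25.5 and 19.5 FPKM without (log2 fold change -1.65 ± 0.11 (SE), adjusted p = 1.2e-06). Adsl held 58.4, 64.5 and 63.3 FPKM and 27.8, 26.1 and 22.4 FPKM (log2 fold change -1.29 ± 0.10 (SE), adjusted p = 2.7e-06). Atic, of the closing steps, held 82.3, 90.7 and 90.4 FPKM and 43.8, 43 and 35.5 FPKM (log2 fold change -1.11 ± 0.10 (SE), adjusted p = 6.9e-06), a call that was lost without replicate 3, at -0.99. None of these groups overlapped, and with PI3Kdi the log2 fold changes of Gart, Adsl and Atic were -0.17, -0.10 and -0.12, none past the adjusted p.

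Prps1 and Prps2 make the ribose donor of purine, pyrimidine and salvage reactions, and only Prps1 was called on activation. Prps1 rose from 27.7, 34.2 and 25.1 FPKM to 76.1, 110.2 and 109 FPKM (log2 fold change 1.75 ± 0.15 (SE), adjusted p = 6.1e-07), and Prps2 held 50.8, 52.9 and 41.4 FPKM in naïve cells and 31.7, 47.7 and 37.3 FPKM after activation (log2 fold change -0.33 ± 0.14 (SE), adjusted p = 0.052), an adjusted p that was 0.037 with the replicate number as a block. With PI3Kdi Prps1 held 85.2, 88.7 and 93.2 FPKM and Prps2 48.8, 46.8 and 44.3 FPKM, both overlapping the TCR libraries. The share of Prps1 in the pair was 37.4% ± 2 in naïve cells, 71.6% ± 2.48 in the TCR activated group and 65.6% ± 2.11 with PI3Kdi, with ranges of 35.3% to 39.2%, 69.8% to 74.4% and 63.6% to 67.8% that did not overlap.

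In CTL Prps1 held 41.4, 38.2 and 39.2 FPKM with IL-2 and 24.5, 22.4 and 28.1 FPKM without (log2 fold change -0.67 ± 0.10 (SE), adjusted p = 0.00018), and Prps2 held 24, 20.1 and 19.3 FPKM and 26.1, 25 and 22.7 FPKM (log2 fold change 0.22 ± 0.10 (SE), adjusted p = 0.081). Neither was called at the 2-fold limit. Prps1 took 65.3% ± 1.84 of the pair with IL-2 and 50.4% ± 4.32 without, again without overlap.

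At the branch point after the ring is closed, Adss leads to AMP, and Impdh1, Impdh2 and Gmps lead to GMP. Adss rose on activation from 40.7 ± 5.21 FPKM to 98.3 ± 15.8 FPKM (log2 fold change 1.26 ± 0.13 (SE), adjusted p = 2.4e-06). It was one of only 2 mRNA of the 38, with Ctps2, whose PI3Kdi libraries all lay above the TCR libraries, at 123, 128 and 129.7 FPKM against 80.1, 106 and 108 FPKM, and it did not pass the adjusted p (log2 fold change 0.38 ± 0.13 (SE), adjusted p = 0.061). In CTL it was 51.3 ± 3.49 FPKM with IL-2 and 59.5 ± 1.17 FPKM without, higher at the adjusted p and by less than 2-fold (log2 fold change 0.22 ± 0.08 (SE), adjusted p = 0.029). Gmps, the last step to GMP, rose from 15.8 ± 2.09 FPKM to 71.4 ± 12.7 FPKM, and in CTL it was 38.1 ± 2.41 FPKM with IL-2 and 19.9 ± 1.28 FPKM without (log2 fold change -0.94 ± 0.09 (SE), adjusted p = 1e-05), just under the 2-fold limit.

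The isoenzymes of inosine monophosphate dehydrogenase were at equal levels in naïve cells and parted on activation. Impdh2 went from 86.4, 88.4 and 81.2 FPKM to 354, 398 and 404 FPKM (log2 fold change 2.17 ± 0.08 (SE), adjusted p = 6.7e-10), whereas Impdh1 held 81, 84 and 90 FPKM and 103, 104 and 95.2 FPKM, higher at the adjusted p by 1.19-fold (log2 fold change 0.25 ± 0.07 (SE), adjusted p = 0.0098). With PI3Kdi Impdh1 held 95, 98 and 92.4 FPKM and Impdh2 364, 358 and 366 FPKM. Both overlapped the TCR libraries, and neither passed the adjusted p (log2 fold changes -0.08 and -0.09, limma adjusted p = 0.5 and 0.51). Impdh1 made up 49.9% ± 2.32 of the pair in naïve cells, 20.8% ± 1.75 in the TCR activated group and 20.8% ± 0.671 with PI3Kdi.

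Without IL-2 both Impdh genes were lower at the adjusted p and neither by 2-fold. Impdh1 held 93.2, 107 and 112 FPKM with IL-2 and 62.9, 63.1 and 57.7 FPKM without (log2 fold change -0.76 ± 0.09 (SE), adjusted p = 4.3e-05), and Impdh2 held 151, 151 and 155 FPKM and 93.9, 87.8 and 76.8 FPKM (log2 fold change -0.83 ± 0.09 (SE), adjusted p = 2.2e-05). The share of Impdh1 was 40.5% ± 2.08 with IL-2 and 41.6% ± 1.41 without, and these ranges, 38.1% to 42% and 40.1% to 42.9%, overlapped. Of the 75-base stretches of Impdh2, 34.9% occur also in its annotated pseudogene.

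Of the 5 mRNA of the pyrimidine branch, 4 rose on activation and Ctps2 fell. The branch summed to 77.9 ± 3.81 FPKM in naïve cells, 360 ± 39.4 in the TCR activated group and 331 ± 3.33 with PI3Kdi, and the activated groups overlapped. In CTL it was 137 ± 4.94 FPKM with IL-2 and 54.1 ± 3.34 without, and all 5 mRNA were called, 4 lower and Ctps2 higher.

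Cad, the large protein of the opening steps, went from 22.6, 22.2 and 21.7 FPKM to 122, 136 and 138 FPKM on activation (log2 fold change 2.57 ± 0.07 (SE), adjusted p = 1.4e-10) and held 127, 126 and 129 FPKM with PI3Kdi (log2 fold change -0.05 ± 0.07 (SE), adjusted p = 0.68). Without IL-2 it fell in CTL from 47.3, 48.4 and 48 FPKM to 13.5, 13.3 and 9.71 FPKM (log2 fold change -1.99 ± 0.12 (SE), adjusted p = 1.1e-06). Dhodh, the mitochondrial dehydrogenase of the route, had the smallest change of the branch, from 11, 12.4 and 11.9 FPKM to 29.1, 27.7 and 24.4 FPKM (log2 fold change 1.19 ± 0.10 (SE), adjusted p = 3.7e-07).

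The PI3Kdi libraries of Dhodh held 23.1, 22.3 and 24.4 FPKM, all below the TCR libraries and not past the adjusted p (log2 fold change -0.22 ± 0.10 (SE), adjusted p = 0.15). In CTL Dhodh went from 8.65, 9.71 and 11.1 FPKM to 4.08, 4.16 and 4.09 FPKM (log2 fold change -1.23 ± 0.12 (SE), adjusted p = 1.5e-05). Umps, which completes uridine monophosphate, rose from 12.2 ± 0.622 FPKM to 91.2 ± 12.7 FPKM on activation and held 92.7 ± 4.94 FPKM with PI3Kdi. Umps fell without IL-2, from 34.4, 32 and 35.7 FPKM to 11.4, 11.1 and 10.9 FPKM (log2 fold change -1.60 ± 0.08 (SE), adjusted p = 4.6e-07).

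CTP synthase makes CTP from UTP and has 2 genes, and their log2 fold changes had opposite signs in each comparison. Ctps (Entrez 51797) lies on chromosome 4 from 120539868 to 120570276 and Ctps2 (Entrez 55936) on chromosome X from 162901268 to 163034541. No 75-base stretch of either occurs in a transcript of another gene, so their reads can be told apart.

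Ctps held 14.1, 14.5 and 11.1 FPKM in naïve cells and 83.9, 121 and 113 FPKM after activation, and rose (log2 fold change 2.98 ± 0.14 (SE), adjusted p = 4.5e-09). Ctps2 held 18.6, 19.4 and 17.6 FPKM and 3.79, 4.59 and 3.68 FPKM, and fell (log2 fold change -2.18 ± 0.12 (SE), adjusted p = 1.3e-08). Neither gene's groups overlapped. With PI3Kdi Ctps held 80.7, 78.2 and 77.1 FPKM, all below the TCR libraries without passing the adjusted p (log2 fold change -0.41 ± 0.14 (SE), adjusted p = 0.068).

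Ctps2 with PI3Kdi held 8.31, 8.62 and 9.47 FPKM, between the TCR and the naïve libraries and apart from both. It was called higher than in TCR activated cells, by 2.19-fold (log2 fold change 1.12 ± 0.12 (SE), adjusted p = 0.00011), in 3 of 3 pools, and the call was lost with a pseudocount of 1, at a log2 fold change of 0.97. Against naïve cells it was lower with PI3Kdi (log2 fold change -1.07 ± 0.12 (SE), adjusted p = 6.1e-06), a call that uses the same PI3Kdi libraries and was lost, at -0.99 each time, with a pseudocount of 1 and under median scaling.

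In CTL Ctps held 39.6, 35.4 and 40 FPKM with IL-2 and 8.9, 9.19 and 5.73 FPKM without (log2 fold change -2.29 ± 0.17 (SE), adjusted p = 2.4e-06), and Ctps2 held 7.85, 6.49 and 6.98 FPKM and 18.6, 17.9 and 19.8 FPKM (log2 fold change 1.39 ± 0.10 (SE), adjusted p = 2.7e-06). Ctps2 was the one mRNA of the 38 that rose without IL-2. Its mean was 18.5 ± 0.903 FPKM in naïve cells and 18.8 ± 0.942 in CTL without IL-2, in separately normalised tables.

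As a share of the pair, Ctps was 41.5% ± 2.52 in naïve cells, 96.3% ± 0.582 in the TCR activated group and 89.9% ± 0.808 with PI3Kdi, with ranges of 38.6% to 43.1%, 95.7% to 96.8% and 89.1% to 90.7%. In CTL it was 84.4% ± 0.847 with IL-2 and 29.6% ± 6.21 without. Ctps was the larger part of the pair in every activated library and every CTL library with IL-2, and Ctps2 the larger part in every naïve library and every CTL library without IL-2.

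**Figure D4:**
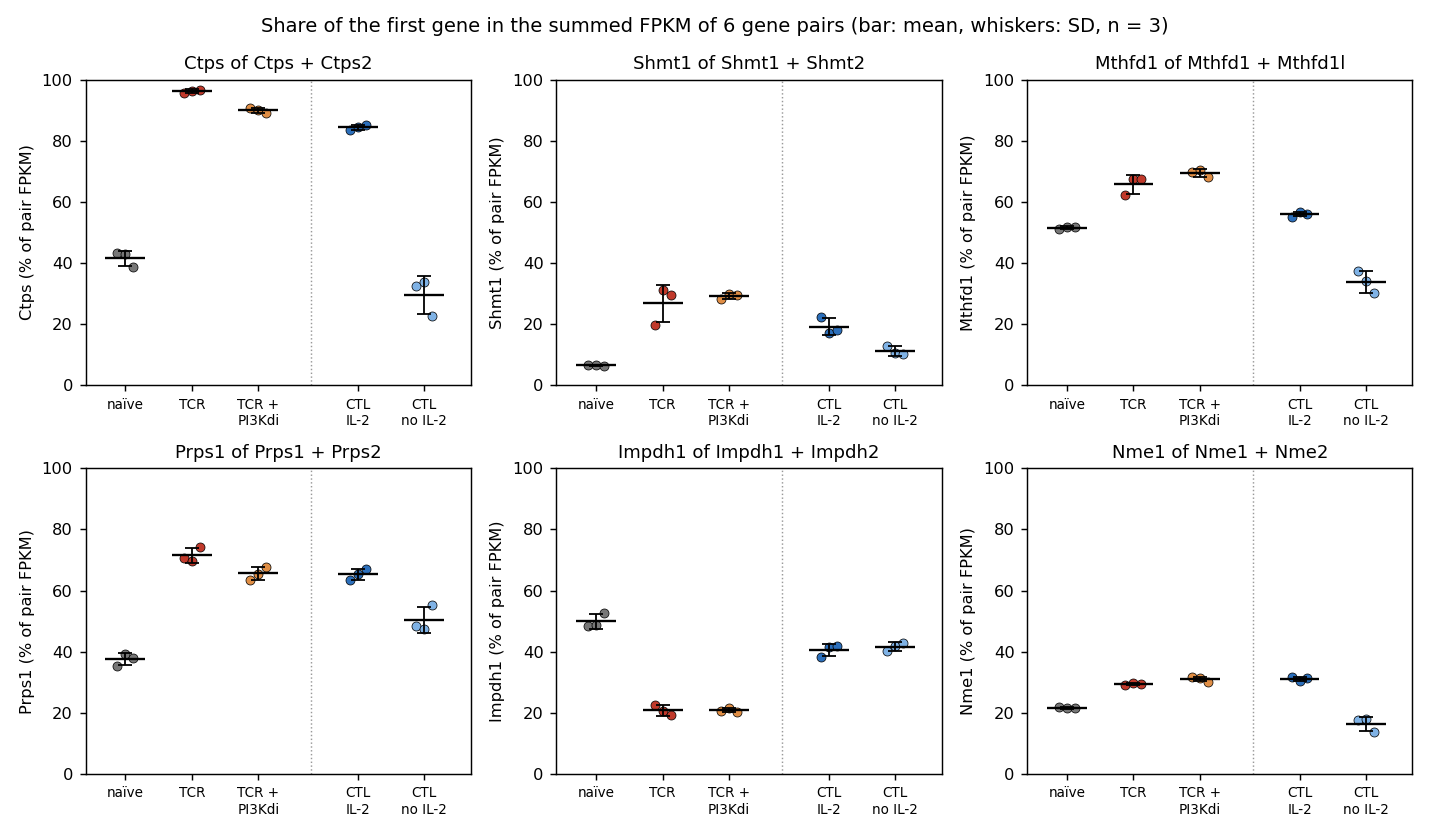
Share of the first gene in the summed FPKM of 6 gene pairs, in percent, for each library (points) with the mean and SD of 3 replicates (bar and whiskers), and a dotted line between the separately normalised tables. Ctps goes from 41.5% in naïve to 96.3% in TCR activated cells and is 29.6% in CTL without IL-2, while the share of Impdh1 falls from 49.9% to 20.8% on activation and stays at 40.5% and 41.6% in CTL.

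The 9 mRNA of the deoxynucleotide branch held the mRNA of largest change on activation, Tk1, Rrm2 and Tyms, and all 9 rose, by a median log2 fold change of 3.60. Their sum was 376 ± 57.2 FPKM in naïve cells, 1783 ± 207 in the TCR activated group and 1534 ± 55.6 with PI3Kdi. None was called in the PI3Kdi comparison. All 9 had a negative log2 fold change there, as did 5733 of the 11262 mRNA of the table. Within the pools, the PI3Kdi to TCR ratio of the sum was 0.869 ± 0.117 (SD, n = 3) and below 1 in 2 of 3, and the groups overlapped. In CTL the sum was 1183 ± 31.5 FPKM with IL-2 and 522 ± 42.1 without, and 6 of 9 fell.

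Tk1, the cytosolic thymidine kinase of salvage, and Rrm2, the small subunit of ribonucleotide reductase, went from near 0 to high levels. Tk1 held 0.23, 0.11 and 0.18 FPKM in naïve cells and 60.9, 66.9 and 74.9 FPKM after activation (log2 fold change 7.97 ± 0.18 (SE), adjusted p = 3.3e-11). Rrm2 held 0.85, 0.79 and 0.94 FPKM and 209, 253 and 243 FPKM (log2 fold change 7.93 ± 0.10 (SE), adjusted p = 9.2e-13). On the log2(FPKM + 0.1) scale the change of such low mRNA is understated, and Tk1 has exons that meet those of Afmid on the other strand.

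With PI3Kdi Rrm2 held 196, 169 and 176 FPKM, below every TCR library and past the adjusted p by less than 2-fold (log2 fold change -0.38 ± 0.10 (SE), adjusted p = 0.027; 0.022 to 0.3 when a replicate was left out). Tk1 held 47.4, 41.5 and 60.7 FPKM, also below every TCR library but not past the adjusted p (log2 fold change -0.45 ± 0.18 (SE), adjusted p = 0.12). Without IL-2 Rrm2 fell in CTL from 223, 231 and 239.6 FPKM to 92.6, 83.3 and 65.4 FPKM (log2 fold change -1.54 ± 0.12 (SE), adjusted p = 3.3e-06) and Tk1 from 69.8, 73.3 and 78.2 FPKM to 30.9, 30.2 and 27.4 FPKM (log2 fold change -1.32 ± 0.08 (SE), adjusted p = 1e-06).

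Rrm1, the large subunit of the reductase, was present in naïve cells at 12.7 ± 0.551 FPKM and rose to 180 ± 13.9 FPKM (log2 fold change 3.81 ± 0.09 (SE), adjusted p = 3.3e-11). In CTL it held 118, 112 and 122 FPKM with IL-2 and 71.3, 59.2 and 47.6 FPKM without. The groups did not overlap, and the change stood at the 2-fold limit without passing it (log2 fold change -0.999971 ± 0.13 (SE), adjusted p = 9.4e-05), and it passed with a pseudocount of 0.01 and without replicate 1 or 2.

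Tyms, the thymidylate synthase that takes its one-carbon unit from folate, held 0.713 ± 0.146 FPKM in naïve cells and 32.9 ± 1.88 FPKM after activation (log2 fold change 5.36 ± 0.14 (SE), adjusted p = 6.8e-11). Its PI3Kdi libraries held 28.9, 25.8 and 25.2 FPKM against 32.6, 34.9 and 31.1 FPKM in the TCR libraries, without overlap and not past the adjusted p (log2 fold change -0.30 ± 0.14 (SE), adjusted p = 0.16). In CTL it fell from 17.2, 17.7 and 18.7 FPKM to 8.96, 8.13 and 7.06 FPKM (log2 fold change -1.15 ± 0.11 (SE), adjusted p = 1.2e-05).

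Dtymk, the kinase of the next step, had the smallest change of the branch, from 24.8, 28.2 and 26.4 FPKM to 62.5, 59.8 and 64.6 FPKM (log2 fold change 1.23 ± 0.08 (SE), adjusted p = 7.4e-08), and in CTL it was 31.8 ± 0.776 FPKM with IL-2 and 21.4 ± 2.96 FPKM without (log2 fold change -0.57 ± 0.11 (SE), adjusted p = 0.00084). The enzymes that clear the pool of dUTP and of modified dCTP, Dut and Dctpp1, rose by 3.51 and 3.60 on the log2 scale. In CTL Dut fell from 70.2, 62.9 and 63.8 FPKM to 24.7, 21.6 and 19 FPKM (log2 fold change -1.60 ± 0.10 (SE), adjusted p = 1.3e-06) and Dctpp1 from 58.8, 63.2 and 60.3 FPKM to 17.6, 15.6 and 15.4 FPKM (log2 fold change -1.90 ± 0.08 (SE), adjusted p = 2.6e-07).

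Nme1 and Nme2, the nucleoside diphosphate kinases that add the last phosphate, are neighbours on chromosome 11 with 2668 bases between them. Nme2 had the highest FPKM of the 38 mRNA in naïve cells. Nme1 rose from 66.2, 78.7 and 56.3 FPKM to 221, 284 and 311 FPKM (log2 fold change 2.02 ± 0.14 (SE), adjusted p = 1.1e-07) and Nme2 from 238, 289 and 207 FPKM to 535, 676 and 752 FPKM (log2 fold change 1.42 ± 0.14 (SE), adjusted p = 2.9e-06). With PI3Kdi Nme1 held 250.1, 248 and 258 FPKM and Nme2 539, 549 and 596 FPKM, both overlapping the TCR libraries.

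In CTL Nme1 fell from 198, 179 and 168 FPKM to 51.7, 50 and 38.2 FPKM (log2 fold change -1.97 ± 0.12 (SE), adjusted p = 9.6e-07), and Nme2 was at 428, 411 and 369.5 FPKM with IL-2 and 243, 231 and 243 FPKM without (log2 fold change -0.75 ± 0.08 (SE), adjusted p = 2.9e-05). Nme1 was 21.5% ± 0.228 of the pair in naïve cells, 29.3% ± 0.19 in the TCR activated group and 31% ± 0.756 with PI3Kdi, and in CTL it was 31.1% ± 0.689 with IL-2 and 16.3% ± 2.35 without, without overlap. An annotated read-through transcript of the pair holds 10.4% of the 75-base stretches of Nme1 and 45.8% of those of Nme2, so the split of reads between them is uncertain.

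Over the promoter windows of the 36 matched genes, the E-box was found in 6 (16.7%), against 8.09% of the 27025 genes with a window. These were Paics, Impdh2 and Atic of the purine branch and Tyms, Dtymk and Nme1 of the deoxynucleotide branch, and no serine, folate or pyrimidine gene held it. The E2F letters were found in Ppat and Prps2 (5.56%, against 2.6% of all genes), in Prps2 downstream of the start, and the C/EBP-ATF response element (CARE, TGATGNAA) in Prps1 alone (2.78%, against 4.51%). All motifs were searched on both strands. The 27025 genes were not limited to those measured here, and the shares among measured genes were not computed. The stretches are given for genes of both branches that rose on activation, with capitals on the motif and on the strand of the gene.
Tyms, E-box, chr5:30073669-30073698, minus strand: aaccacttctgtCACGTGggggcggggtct
Dtymk, E-box, chr1:93802065-93802094, minus strand: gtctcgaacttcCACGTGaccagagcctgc
Impdh2, E-box, chr9:108560314-108560343, plus strand: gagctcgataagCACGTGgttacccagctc
Nme1, E-box, chr11:93968273-93968302, minus strand: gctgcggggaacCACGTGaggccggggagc
Prps1, CARE, chrX:140456422-140456451, plus strand: ggctatctttgTGATGTAAaaagtgcttta
The Impdh2 stretch overlaps an annotated exon of Impdh2, and the Nme1 stretch overlaps annotated exons of Nme1 and of the read-through gene Gm20390. Another Nme1 window held an E-box in the stretch chr11:93968037-93968066, which overlaps no annotated exon. Of the genes with the E-box, Tyms, Nme1 and Atic fell without IL-2, Dtymk and Impdh2 were lower by less than 2-fold and Paics was not lower. Whether the motif has a part in these levels was not tested.

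Within groups, single libraries stood at the edge for many of these mRNA. TCR replicate 1 was the lowest of its group in 25 of the 38 mRNA and the highest in 7, Psat1, Psph, Shmt2, Mthfd2, Mthfd1l, Aldh1l1 and Dhodh. Its purine sum was 1477 FPKM against 1796 and 1751 in the other TCR libraries, and its serine sum was 449 FPKM against 382 and 371. With replicate 1 left out of every group of the first table, Mthfd2 and Ctps2 kept their calls with PI3Kdi. CTL replicate 3 without IL-2 was the lowest of its group in 29 of 38, and replicate 3 with IL-2 was the highest of its group in 20. With replicate 3 left out of both CTL groups, 21 of the 38 mRNA fell in CTL and Ctps2 rose. The low library was not left out alone.

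Genes of the same pathways outside the 38 were counted as lists. Of 31 further genes of folate transport, the methionine cycle and polyamine synthesis, 23 were measured in the first table. On activation 12 of them rose (52.2%, against 25% of all mRNA) and none fell (against 23.7%). Those that rose included Cth, which makes cysteine from cystathionine and was listed at 0 in all naïve libraries against 8.1, 3.92 and 3.59 FPKM after activation, and Odc1, the opening enzyme of polyamine synthesis (log2 fold change 4.26 ± 0.15 (SE), adjusted p = 4.5e-10). With PI3Kdi 1 of 23 was called (4.35%, against 2.1% of all mRNA lower and 3.04% higher). This was Cth, lower at 0.93, 0.39 and 0.52 FPKM (log2 fold change -2.87 ± 0.34 (SE), adjusted p = 0.00026). In CTL 19 were measured, 9 fell and Mthfs rose (log2 fold change 1.57 ± 0.21 (SE), adjusted p = 0.00011), which is 47.4% and 5.26%, against 13.9% and 14.3% of all mRNA. The largest falls of the list were in Srm (log2 fold change -3.23 ± 0.21 (SE), adjusted p = 1.3e-06), Gcsh (log2 fold change -2.44 ± 0.11 (SE), adjusted p = 2.5e-07) and the folate carrier Slc19a1 (log2 fold change -2.39 ± 0.15 (SE), adjusted p = 1.1e-06).

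Nucleotide salvage, phosphorylation and breakdown were more mixed. Of 47 listed genes 41 were measured in the first table. On activation 16 rose (39%) and 10 fell (24.4%), against 25% and 23.7% of all mRNA. The median log2 fold change of the list was 0.47. The largest rises were in Ak4 (6.07), Dctd (3.11) and Slc29a1 (2.67) and the largest falls in Ampd1 (-6.87), Cmpk2 (-4.99) and Ampd3 (-4.07), on the log2 scale.

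With PI3Kdi 4 of these 41 were called higher (9.76%) and none lower, against 3.04% and 2.1% of all mRNA. Nt5e, the ectonucleotidase that makes adenosine, held 4.39, 5.12 and 5.48 FPKM against 0.45, 0.33 and 0.45 FPKM in TCR activated cells (log2 fold change 3.32 ± 0.18 (SE), adjusted p = 2.1e-06). Samhd1, which hydrolyses deoxynucleoside triphosphates, held 169.8, 203 and 248 FPKM against 55.4, 50.2 and 50.9 FPKM (log2 fold change 1.97 ± 0.12 (SE), adjusted p = 4.6e-06). Xdh, an enzyme of purine breakdown, held 5.56, 4.54 and 5.43 FPKM against 1.41, 1.36 and 1.14 FPKM (log2 fold change 1.91 ± 0.14 (SE), adjusted p = 1.1e-05), and Ampd3, an AMP deaminase, was below 1 FPKM in both groups (log2 fold change 1.04 ± 0.17 (SE), adjusted p = 0.0017).

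Without IL-2, 5 of 42 measured genes of that list rose (11.9%) and 9 fell (21.4%) in CTL, against 14.3% and 13.9% of all mRNA. Samhd1 went from 94.9, 82.3 and 87.8 FPKM to 379, 382 and 458 FPKM (log2 fold change 2.20 ± 0.10 (SE), adjusted p = 2.6e-07). Ampd3 (1.77 on the log2 scale) and the mitochondrial thymidine kinase Tk2 (1.64) also rose, and the largest falls were in Upp1 (-2.90), Ak4 (-2.77) and Dctd (-2.04).

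The replication helicase genes Mcm2 to Mcm7 and the clamp Pcna were taken as genes of cells in S phase to set beside the 38 mRNA. All 7 rose on activation, against 25% of all mRNA. Their sum went from 270 ± 8.59 to 1962 ± 182 FPKM, with a median log2 fold change of 2.86. With PI3Kdi their sum was 2113 ± 66.7 FPKM and none was called, though Mcm2 was higher at the adjusted p by less than 2-fold (log2 fold change 0.40 ± 0.09 (SE), adjusted p = 0.013). Their median log2 fold change was 0.13 with values from 0.00 to 0.40, where the deoxynucleotide mRNA had values from -0.45 to -0.07. In CTL without IL-2 all 7 were lower at the adjusted p, against 36.6% of all mRNA, and 3 fell by over 2-fold, against 13.9%. The median log2 fold change of the 7 was -0.98, and their sum went from 1070 ± 31.3 to 542 ± 86.3 FPKM. No test compared these genes with the 38 mRNA.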

How the data were processed

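RNA was sequenced from 15 libraries of P14 CD8+ T cells, 3 per group. The authors deposited FPKM, rounded to 2 decimals: per their methods and processing notes, reads were aligned to mm10 with STAR 2.5.2b, counted per RefSeq gene with Subread 1.5.1, filtered for low counts, TMM-normalised in edgeR and divided by exon length. The methods do not describe the CTL table, whose labels name the same tools. Blank cells of the first table (1039, none in the 38 genes) were read as 0. Read totals are not given, and the spacing of low FPKM values did not yield them, so depth is unknown.

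Groups came from titles. For CTL with IL-2, the treatment labels of replicates 2 and 3 give other interleukins, and the title was followed. log2(FPKM + 0.1) was fitted with limma 3.58.1 in R 4.3.3 with an intensity trend, the first table's 9 libraries in one fit and the 6 CTL libraries in another, with Benjamini-Hochberg adjustment across the genes of each table. The fit was tested on simulated data, where 99% and 98% of genes changed by a log2 of 2 and 3 were recovered for PI3Kdi against TCR (11262 genes), with 3 false calls. Smaller changes were not simulated, so recovery near the 2-fold limit, where Mthfd2 and Ctps2 lay, was not measured. The simulated libraries were drawn independently and shared no pools. Pools were divided between conditions, and equal replicate numbers were taken to pair the libraries of the first table. Deviations from group means of same-numbered libraries correlated at 0.203 to 0.506 for PI3Kdi and TCR and at -0.181 to 0.226 for TCR and naïve. For PI3Kdi and naïve they correlated at -0.0171 to 0.0303. Libraries of different numbers gave -0.453 to 0.191, -0.306 to 0.378 and -0.0319 to 0.0429 in the same order. In CTL same-numbered libraries gave 0.123 to 0.257 and the others -0.201 to 0.0912. These values are across 10072 genes of the first table and 10263 of the CTL table, which are not independent replicates.

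The genes, lists and tests were chosen with earlier results of these data known. Per-library values are given for mRNA called with PI3Kdi or in CTL, for the largest and smallest change of each branch and each mRNA called lower on activation, and for gene pairs. Of the other lists, up to 3 called genes per direction are named, and Ampd3 with PI3Kdi, Mcm2 and the separate cell markers were added after their values were seen. The result of 1 gene that this rule names is not reported here. Promoters and gene positions are from RefSeq (GRCm38.p6), exons and transcripts from GENCODE M21. Python 3.11.15, pandas 2.3.3, numpy 2.4.6 and matplotlib 3.10.9 were used. The alternatives were other pseudocounts (1, 0.01), a filter at a mean of 1 FPKM, median scaling, a replicate block, no intensity trend, only the groups compared, other fold limits and leaving out each replicate. A replicate number was left out of all groups of a table at once. Values are relative to total RNA of a library and not per cell, and p-values measure the spread of 3 pools or cultures.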

Additional observations from a re-analysis of the deposited data

How the results depend on the processing

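With the replicate number as a block to keep the pairing, 1 mRNA of the 38 was called higher and 1 lower for PI3Kdi against TCR, and no call of the 38 mRNA changed in any of the 4 comparisons. With a pseudocount of 1, PI3Kdi against TCR gave 0 higher and 0 lower of the 38 mRNA and 170 and 141 of all genes, PI3Kdi against naïve gave 1 lower, and IL-2 withdrawal gave 1053 higher of all genes. Without the fold limit, the counts of all genes higher and lower were 4609 and 4487 for TCR against naïve, 1053 and 922 for PI3Kdi against TCR, 4512 and 4394 for PI3Kdi against naïve and 3948 and 4108 for CTL without IL-2, with 4 of the 38 mRNA lower under PI3Kdi and 4 higher without IL-2. At a fold limit of 1.5 they were 687 and 433 for PI3Kdi against TCR and 2824 and 2833 for CTL, with 3 of the 38 mRNA higher in CTL. Leaving out each replicate gave 197 to 345 higher and 126 to 245 lower of all genes for PI3Kdi against TCR, 0 to 1 of the 38 mRNA lower there, and 1 to 2 higher in CTL.

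Signs of values near 0 that no test called turned when a replicate was left out, with log2 fold changes for PI3Kdi against TCR of -0.16 to 0.02 in Mthfd1, -0.21 to 0.04 in Mat2a, -0.11 to 0.12 in Paics, -0.19 to 0.11 in Gmps and -0.10 to 0.12 in Umps. For PI3Kdi against naïve, Prps2 gave -0.12 to 0.02, and 0.03 under median scaling, which also left 1 of the 38 mRNA lower there. Median scaling moved the summed FPKM of the folate branch to 282 in naïve and 1268 in TCR activated cells, purine to 1636 with PI3Kdi and 753 in CTL with IL-2, pyrimidine to 336 with PI3Kdi, all 38 mRNA to 2912 in CTL with IL-2, and the Mcm and Pcna genes to 260 in naïve cells. The cause of these shifts was not tested. The counts of 33 higher on activation and 22 lower without IL-2 stayed within 1.5 times under each of the alternatives run, and the share of Ctps in its pair without IL-2 was 27.4% to 33.1% when a replicate was left out. Depth is unknown, so no limit of detection is given for mRNA such as Tk1 or Aldh1l1 below 2 FPKM.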
